A study of Saccharomyces cerevisiae with 36 samples.

Results

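The genes described here make guanine nucleotides or recover purine bases and nucleosides in the budding yeast Saccharomyces cerevisiae. They were chosen by gene symbol, and the 9 genes are IMD2, IMD3, IMD4, GUA1, AAH1, HPT1, APT1, ADO1 and FCY2. All 9 were measured, out of 5656 genes with a symbol on the array. Their systematic names are YHR216W for IMD2, YLR432W for IMD3, YML056C for IMD4, YMR217W for GUA1, YNL141W for AAH1, YDR399W for HPT1, YML022W for APT1, YJR105W for ADO1 and YER056C for FCY2. They are read by 12 probe sets annotated to a single gene and by 1 further probe set annotated to both FCY2 and FCY22. Total RNA was taken from yeast in continuous culture on 36 Affymetrix arrays. The arrays cover 3 successive metabolic cycles of 12 positions, about 25 min apart, with 1 array per position and cycle. No strain, genotype or treatment is named in the labels, and all arrays share the same culture conditions as far as the labels say. The 3 arrays of a position are treated as replicates. Nothing says that they come from separate cultures, so each p reflects no more than the scatter among these arrays, which may be technical.

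Purine nucleotides are made through inosine monophosphate (IMP), from which the adenine and guanine branches part. IMP dehydrogenase, encoded by the IMD genes, takes IMP into the guanine branch and is the step that limits it, and GMP synthetase, encoded by GUA1, completes guanosine monophosphate. Salvage enzymes return free bases and nucleosides to the nucleotide pool, which costs the cell less than synthesis from small precursors. Guanine nucleotides are needed for RNA synthesis and for the GTP-driven steps of translation. In yeast, IMD2 transcription is known to depend on guanine nucleotide supply through the choice of its start site.

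Intensities are given as multiples of each array's median, so a value is comparable between arrays for the same probe set and not between genes. Changes are on the scale of log2(intensity + 0.0516), which understates the change of dim genes, and all 9 genes lay above the dimmest 25% of genes. Pairs of arrays from 1 position correlated across genes at 0.976 in the median and at 0.833 at the lowest. The 9 bacterial control probe sets moved by -0.0076 log2 between positions 8 and 9 and the other positions, and their swing over the cycle was 0.531.

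All 9 genes rose late in the cycle, ADO1 over more arrays than the others. In limma's moderated F test of a cosine with a period of 12 positions, 9 of 9 were called with an adjusted p under 0.05 after Benjamini-Hochberg adjustment over all genes, where 78.8% of all genes were. The swing, the fitted distance from trough to peak, was 2-fold or more in all 9, against 38.1% of all genes. AAH1 had the widest swing of the group, 3.52 ± 0.53 log2 (SE, 36 arrays), and ADO1 the narrowest, 1.07 ± 0.21. On the probe set used for each gene, the highest array of every cycle was at position 8 or 9. These were 11 and 16 of the 27 combinations of gene and cycle, counted for the 9 genes alone. The peak of the cosine lay between position 8.72 for HPT1 and position 10.5 for ADO1. The plot of intensities by position shows the rise of each gene, broadest in ADO1. IMD2 and IMD3 also stayed raised after positions 8 and 9. At positions 10 to 12 the means were 3.92 to 4.50 for IMD2, against 1.13 to 1.44 at positions 2 to 6. For IMD3 they were 12.0 to 13.4, against 3.74 to 6.82.

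**Figure D1:**
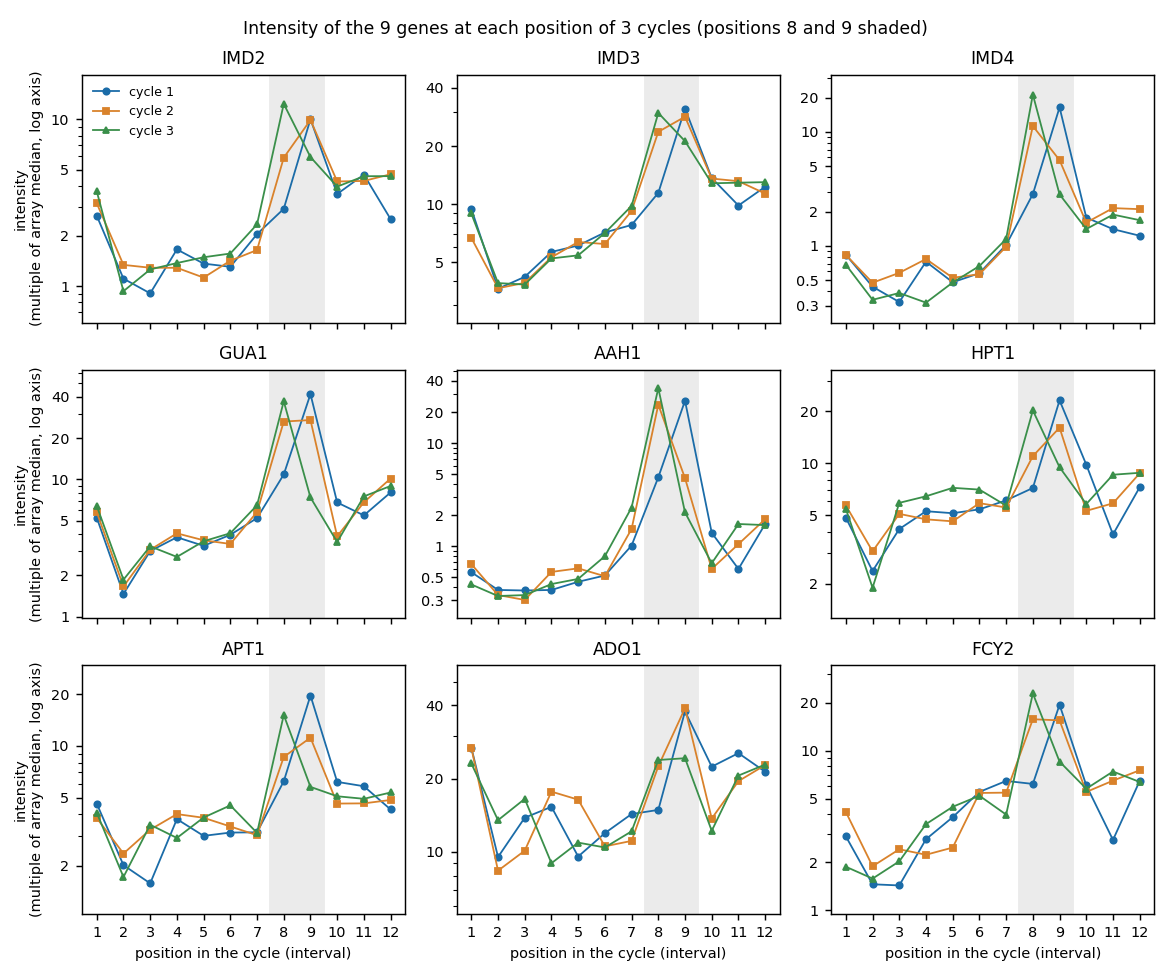
Intensity (multiple of the array median, log axis) against position in the cycle for the 9 genes, 1 panel each; lines and symbols are the 3 cycles, and positions 8 and 9 are shaded. AAH1 rises steeply at 1 position of each cycle and IMD4 at both positions in cycle 2, whereas ADO1 moves between 8.38 and 39.0 and is also high at position 1.

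The guanine branch was led by IMD4, which encodes an IMP dehydrogenase subunit. IMD4 stood at 2.85, 11.3 and 21.2 at position 8 of cycles 1, 2 and 3, and at 16.4, 5.66 and 2.83 at position 9. The other 30 arrays lay between 0.318 and 2.15, with a median of 0.748. Its 6 arrays at positions 8 and 9 thus all stood above the other 30, which held for 1 of the 9 genes and for 0.495% of all genes. The difference between positions 8 and 9 and the other positions was 3.14 ± 0.26 log2 (SE; adjusted p = 5.51e-11 in limma, 6 against 30 arrays), an 8.80-fold rise.

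IMD3, a second IMP dehydrogenase gene, stood at 11.5, 23.7 and 29.7 at position 8 of the 3 cycles and at 31.3, 28.4 and 21.2 at position 9. The other 30 arrays ranged from 3.65 to 13.7 with a median of 7.12, so the groups overlapped only through position 8 of cycle 1. The difference was 1.64 ± 0.12 log2 (adjusted p = 3.04e-12 in limma), or 3.12-fold. IMD2, the IMP dehydrogenase gene known to be induced when guanine nucleotides run short, stood at 2.91, 5.89 and 12.4 at position 8 and at 10.0, 9.93 and 5.95 at position 9. Its other 30 arrays ranged from 0.905 to 4.69 with a median of 1.65, and again only position 8 of cycle 1 fell among them. The difference was 1.75 ± 0.17 log2 (adjusted p = 9.88e-10 in limma), or 3.36-fold. IMD2 stayed raised after the burst, at 3.57 to 4.67 over positions 10 and 11, and stood at 2.52, 4.69 and 4.57 at position 12 and at 1.11, 1.34 and 0.933 at position 2.

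GUA1 encodes GMP synthetase, which follows IMP dehydrogenase. It stood at 10.9, 26.4 and 37.1 at position 8 and at 41.8, 27.1 and 7.38 at position 9, against 1.46 to 10.1 and a median of 4.00 on the other 30 arrays. The 2 groups overlapped through position 9 of cycle 3. The difference was 2.29 ± 0.21 log2 (adjusted p = 3.98e-10 in limma), or 4.88-fold.

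Among the salvage genes AAH1 rose most. AAH1 encodes adenine deaminase, which turns adenine into hypoxanthine. It stood at 4.66, 23.5 and 34.1 at position 8 and at 25.7, 4.57 and 2.13 at position 9, while the other 30 arrays lay between 0.302 and 2.38 with a median of 0.584. The single array among those 6 that fell within the range of the others was position 9 of cycle 3. The difference was 3.77 ± 0.31 log2 (adjusted p = 7.47e-11 in limma), or 13.6-fold, and was the largest of all 5656 genes in this comparison. Under 14 settings of the processing it ranked between 1 and 2, and IMD4 between 2 and 7. Within each cycle the higher of the 2 arrays was 48.1 ± 9.8 times (SD, n = 3 cycles) the median of the 10 other positions.

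HPT1 encodes hypoxanthine-guanine phosphoribosyltransferase, which makes IMP and GMP from free bases. It stood at 7.18, 11.0 and 20.2 at position 8 and at 23.1, 16.1 and 9.47 at position 9, against 1.90 to 9.81 on the other 30 arrays. Its values at position 8 of cycle 1 and position 9 of cycle 3 fell within the range of the others. The difference was 1.29 ± 0.17 log2 (adjusted p = 1.95e-07 in limma), or 2.45-fold. APT1, adenine phosphoribosyltransferase, stood at 6.22, 8.62 and 15.1 at position 8 and at 19.7, 11.2 and 5.77 at position 9, against 1.58 to 6.17. Only position 9 of cycle 3 lay within the range of the other arrays. The difference was 1.46 ± 0.17 log2 (adjusted p = 2.49e-08 in limma), or 2.75-fold.

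ADO1, adenosine kinase, moved least and had a second high. It stood at 14.9, 22.5 and 23.9 at position 8 and at 37.8, 39.0 and 24.3 at position 9. The other 30 arrays ranged from 8.38 to 26.9 with a median of 14.1, and 4 of the 6 arrays of positions 8 and 9 lay within that range. At position 1 it stood at 26.9, 26.8 and 23.1, and it fell at position 2 by a factor of 1.71 to 3.20. The difference between positions 8 and 9 and the others was 0.77 ± 0.14 log2 (adjusted p = 2.45e-05 in limma), or 1.71-fold. With position 8 alone in place of both positions the difference was 0.41 and no longer passed (adjusted p = 0.0687 in limma).

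FCY2 encodes the permease that takes up purine bases and cytosine. It stood at 6.18, 15.7 and 22.8 at position 8 and at 19.4, 15.5 and 8.53 at position 9, against 1.43 to 7.53 and a median of 4.05 on the other 30 arrays. Position 8 of cycle 1 was the only one of the 6 arrays within that range. The difference was 1.84 ± 0.20 log2 (adjusted p = 9.84e-09 in limma), or 3.58-fold. FCY2 had already climbed before the burst, from 1.45 to 1.88 at position 2 to between 5.21 and 5.51 at position 6.

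In all, 9 of 9 genes were higher at positions 8 and 9 with an adjusted p under 0.05 in limma, where 30.0% of all genes were. With a rise of at least 2-fold required there were 8 of 9 against 9.92%, ADO1 being the exception. The median difference of the 9 genes was 1.75 log2, and that of all genes was -0.04. The genes and this contrast were chosen with earlier results of these data known, so these counts are a description.

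**Figure D2:**
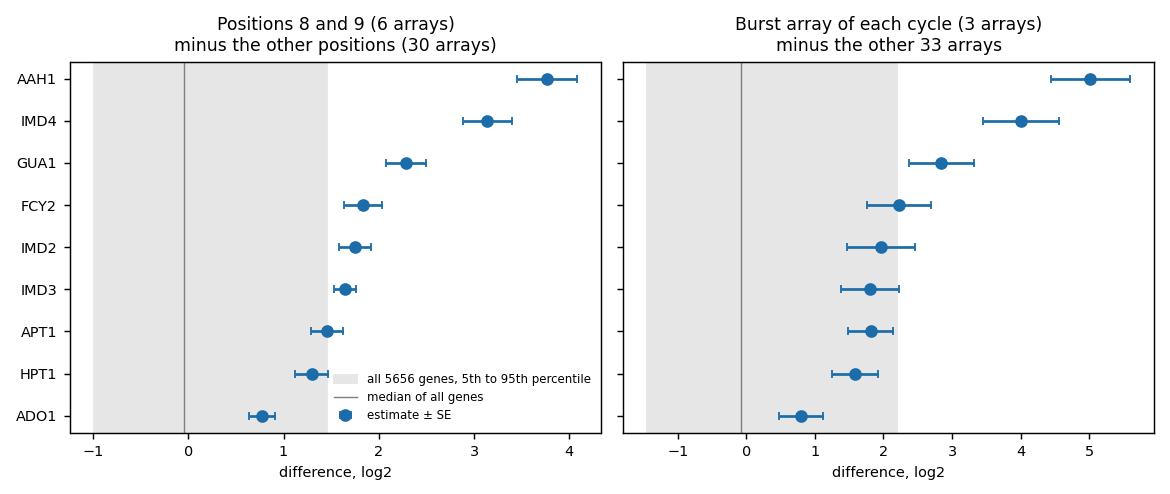
Difference in log2 between positions 8 and 9 and the other positions (left) and between the burst array of each cycle and the other 33 arrays (right); points are limma estimates with SE bars, the grey band spans the 5th to 95th percentile of all 5656 genes and the line is their median. AAH1 and IMD4 lie far above the band in both panels, and ADO1 and HPT1 lie within it. In the right panel IMD2, IMD3 and APT1 also lie within the band. APT1 in the left panel and FCY2 in the right panel lie at its upper edge.

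The burst did not fall on the same position in each cycle. A list of 25 ribosome assembly genes, none of them among the 9, was used to mark it: its mean was higher at position 9 in cycle 1, but at position 8 in both later cycles. The array so marked in each cycle was compared with the other 33 arrays. In limma 9 of 9 genes were higher on the burst arrays, where 25.9% of all genes were, and 8 of 9 were higher by at least 2-fold, where 15.0% were. AAH1 averaged 27.8 ± 5.6 (SD, n = 3) on the burst arrays, against a median of 0.605 and a highest value of 4.66 on the others. Its difference was 5.02 ± 0.58 log2 (SE; adjusted p = 8.34e-09 in limma), ranking 1 among 5656 genes and between 1 and 3 under 12 settings. IMD4 followed with 4.01 ± 0.55 (adjusted p = 2.06e-07 in limma), at rank 7 and between ranks 5 and 13 under the 12 settings, with rank 13 without cycle 1 and rank 12 without cycle 3. GUA1 had 2.85 ± 0.47, FCY2 2.23 ± 0.47, IMD2 1.97 ± 0.50, APT1 1.81 ± 0.33, IMD3 1.80 ± 0.42 and HPT1 1.58 ± 0.34 on the log2 scale, each with an adjusted p of at most 0.0013 in limma. For AAH1, IMD4 and FCY2 the 3 burst arrays all stood above the other 33, which held for 12.0% of all genes.

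ADO1 was the weakest here, with 0.80 ± 0.32 log2 and an adjusted p of 0.0388 in limma. That call was lost with quantile normalization (adjusted p = 0.0909), with equal trimmed means (0.0655), without cycle 1 (0.286) and without cycle 3 (0.104), so that 8 of 9 genes were called under each of these.

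Set side by side within each cycle, positions 8 and 9 separated the 9 genes. The difference of position 9 minus position 8 rests on 1 array each and was not tested. In cycle 1 all 9 genes were higher at position 9, by 1.34 log2 for ADO1 to 2.51 for IMD4. In cycle 3, 8 of the 9 were higher at position 8, and ADO1 was level at 0.02 log2. Cycle 2 lay between, with 6 genes higher at position 9 and 3 at position 8. Of all 5656 genes, 3000, 3081 and 2844 were higher at position 9 in cycles 1, 2 and 3. Most genes of the array thus also favoured position 9 in cycle 2, and the count of 6 does not set the 9 genes apart.

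In cycle 2 AAH1 was 5.10-fold higher at position 8 than at position 9, and IMD4 1.98-fold higher. FCY2 and GUA1 were near level, with differences of -0.02 and 0.04 log2. IMD3, APT1, HPT1, IMD2 and ADO1 were higher at position 9, by 0.26, 0.37, 0.55, 0.75 and 0.79 log2 in that order. In cycle 3 AAH1 was 15.6-fold higher at position 8, IMD4 7.38-fold, GUA1 4.99-fold and FCY2 2.66-fold. APT1 was 2.61-fold higher at position 8 in that cycle, HPT1 2.13-fold, IMD2 2.07-fold and IMD3 1.40-fold. AAH1 and IMD4 thus lay nearest to position 8 in cycles 2 and 3, and ADO1 nearest to position 9.

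The pattern of position 9 in cycle 1 and position 8 in cycles 2 and 3 was seen in 3 of the 9 genes, AAH1, IMD4 and FCY2, and in 21.8% of all genes. Position 9 in cycles 1 and 2 with position 8 in cycle 3 was seen in 5 of the 9, GUA1, IMD3, APT1, HPT1 and IMD2, and in 12.0% of all genes. Together 8 of the 9 genes changed from position 9 in cycle 1 to position 8 in cycle 3, as did 33.9% of all genes. FCY2 and GUA1 fall in different patterns only through near-level values in cycle 2, -0.02 and 0.04 log2. The probe set annotated to both FCY2 and FCY22 was higher at position 9 in that cycle, at 33.9 against 30.6 at position 8. With a difference of at least 1 log2 required in each cycle, AAH1 alone of the 9 turned, and 5.23% of all genes did. IMD4 missed that threshold in cycle 2 by a narrow margin, at -0.99 log2.

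The ribosome assembly genes had medians of 2.13, -1.38 and -2.64 log2 for position 9 minus position 8 in cycles 1, 2 and 3. The 9 genes had medians of 1.68, 0.26 and -1.38. NSR1, a nucleolar protein used as the marker of the ribosome assembly burst, stood at 2.11, -3.06 and -3.45, near the values of AAH1 at 2.45, -2.35 and -3.97. Genes of purine synthesis from small precursors had medians of 1.83, 0.84 and 0.24 over the 9 measured.

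**Figure D3:**
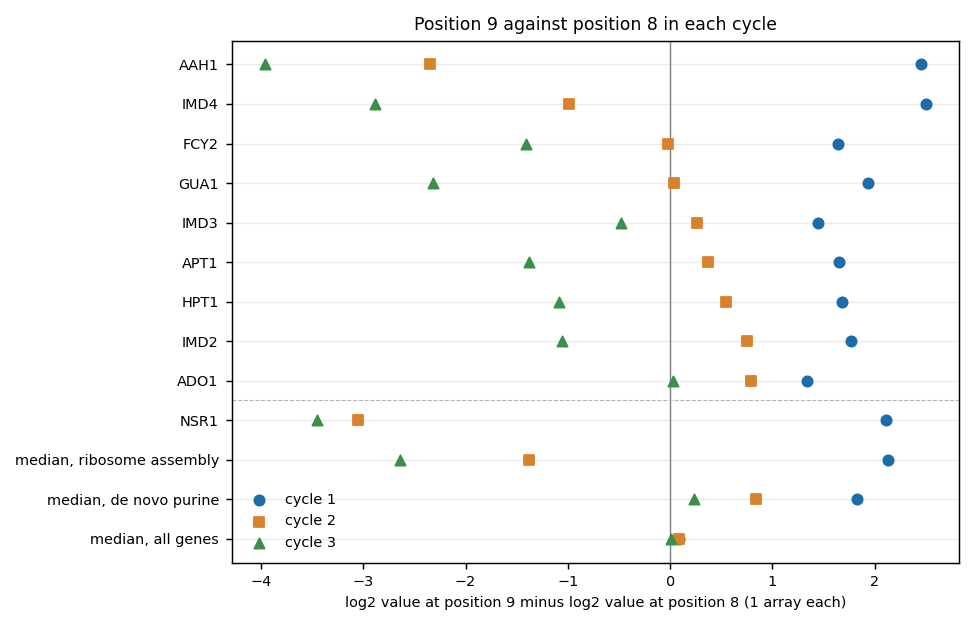
Log2 value at position 9 minus log2 value at position 8, 1 array each, for the 9 genes ordered by cycle 2, the marker NSR1 and the medians of 2 gene lists and of all genes; symbols are the cycles. Every gene lies to the right of 0 in cycle 1, and in cycle 2 the genes run from -2.35 for AAH1 to 0.79 for ADO1.

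The width of the burst was counted as the number of arrays within 2-fold of the highest in a cycle. It was 1 array in 16 of the 27 combinations of gene and cycle and 2 arrays in 7. AAH1 had 1 such array in each cycle. Most genes spread over more than 1 array in cycle 2, with 2 arrays for IMD2, IMD3, IMD4, GUA1, APT1 and FCY2 and 3 for HPT1. The width of IMD2 is that of probe set 11264_f_at. In cycles 1, 2 and 3 there were 3, 7 and 6 such arrays on 4323_f_at and 4, 2 and 6 on 11263_f_at. ADO1 had 5, 5 and 9 arrays within 2-fold of its highest in cycles 1, 2 and 3. The width and the positions of the highest and lowest arrays were counted for the 9 genes alone. They therefore do not show a trait particular to these genes.

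The lowest values of the 9 genes were at positions 2 and 3, which held the lowest array in 17 and 7 of the 27 combinations. Position 2 was chosen for a test after its values were seen. Compared with the other positions, 9 of 9 genes were lower at position 2 with an adjusted p under 0.05 in limma, against 16.2% of all genes. A fall of at least 2-fold was found for 8 of 9, ADO1 again being the exception, against 6.56%. GUA1 fell by 1.89 log2 (adjusted p = 3.74e-06 in limma), with 1.46, 1.66 and 1.86 at position 2 in the 3 cycles, and rose to 3.01, 3.07 and 3.25 at position 3. HPT1 fell by 1.49 log2 (adjusted p = 6.07e-06 in limma), with 2.37, 3.09 and 1.90 at position 2. For GUA1 and HPT1 the 3 arrays of position 2 lay below the other 33. The share of all genes for which this held was not counted, so it does not set them apart. Without cycle 2 the calls of AAH1 (adjusted p = 0.0937) and ADO1 (0.110) were lost, leaving 7 of 9. The bacterial control probe sets were higher at position 2 by 0.371 log2, opposite in direction to the 9 genes, and their part in the result was not tested.

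The IMD genes are alike in sequence, so every probe set was examined. All 12 probe sets annotated to a single gene were called as cycling in the fit over every probe set, where 74.5% were, and all 12 were higher at positions 8 and 9, where 28.6% were. On the burst arrays 11 of 12 were higher, where 24.3% were. The exception was 11263_f_at, 1 of the 3 IMD2 probe sets, with 0.83 ± 0.39 log2 (SE; adjusted p = 0.0769 in limma). IMD2 and IMD3 are read only by probe sets marked _f_at, which can match several transcripts of a family, whereas those of IMD4 carry no such mark. Signal of IMD2 and IMD3 therefore cannot be fully told apart.

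The 3 IMD2 probe sets differed in the size of their rise at positions 8 and 9. It was 1.75 ± 0.17 log2 on 11264_f_at, which is used for the gene, 1.12 ± 0.16 on 4323_f_at and 0.95 ± 0.16 on 11263_f_at. Their peaks also differed, at positions 9.80, 10.1 and 10.5, and in cycle 2 the highest array of 4323_f_at was at position 11, with 3.61. Their correlations over the 36 arrays lay between 0.794 and 0.915. The 2 IMD4 probe sets were closer, with rises of 3.14 ± 0.26 on 9699_at and 3.23 ± 0.29 on 9700_at and a correlation of 0.971. The second one stood at 0.864, 6.00 and 13.7 at position 8 and at 7.04, 2.79 and 1.47 at position 9 of the 3 cycles. The probe set annotated to both FCY2 and FCY22 followed that of FCY2 with a correlation of 0.965. It stood at 16.3, 30.6 and 46.5 at position 8 and at 41.3, 33.9 and 18.3 at position 9. FCY22, read by a probe set of its own among the dimmest 25% of genes, had a difference of 0.15 log2 at positions 8 and 9 (adjusted p = 0.405 in limma).

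**Figure D4:**
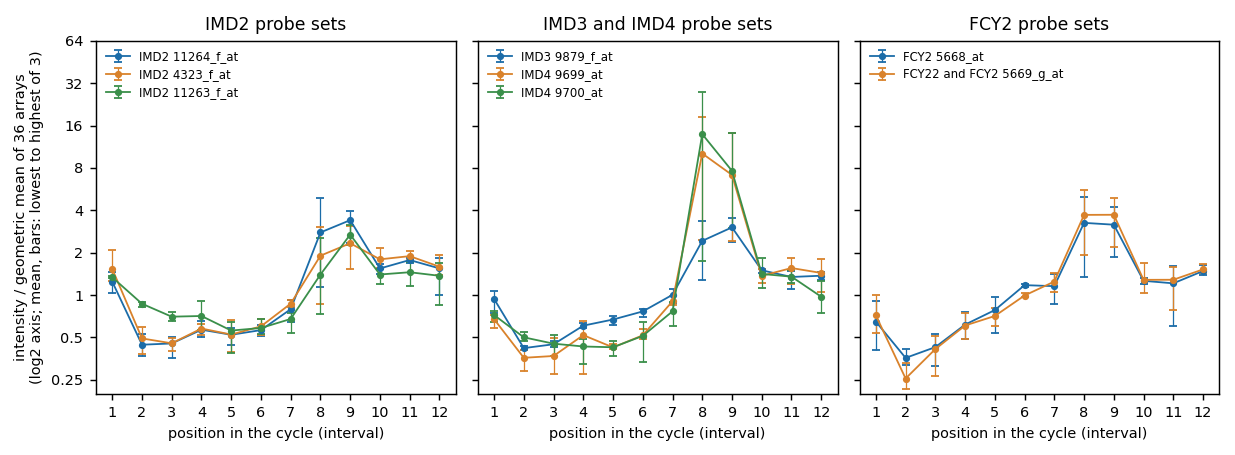
Intensity divided by the probe set's geometric mean over 36 arrays (log2 axis) against position, for every probe set of IMD2, IMD3, IMD4 and FCY2; points are means of 3 arrays and bars run from the lowest to the highest. Both IMD4 probe sets rise more steeply at positions 8 and 9 than those of IMD2 and IMD3.

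The courses of 5 pairs of genes were compared through the swing of the difference of their log2 values. The permutation test over the 36 arrays was one-sided, with 100000 resamples. It treats successive samples as exchangeable, so its p may be too small where neighbouring arrays are alike. IMD2 and IMD4 differed, with a swing of the difference of 1.20 log2 (permutation p = 4e-05, adjusted p = 0.0001 over the 5 pairs). On the burst array IMD4 stood above its own level at positions other than 8 and 9 by 2.11 ± 0.16 log2 (SD, n = 3 cycles) more than IMD2 did. IMD3 and IMD4 differed by a swing of 1.09 (adjusted p = 0.0022 in the permutation test), with 2.28 ± 0.46 log2 more in IMD4 on the burst array. This call was lost without cycle 1 (swing 0.97, adjusted p = 0.0669) and with a pseudocount of 1 (swing 0.24, adjusted p = 0.591). IMD2 and IMD3 differed by 0.64 (adjusted p = 0.00055 in the permutation test), with IMD2 relatively highest at position 11.8. That call was lost without cycle 2 (swing 0.45, adjusted p = 0.057).

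AAH1 and ADO1, which act on adenine and adenosine, differed most of the 5 pairs. The swing of their difference was 2.99 log2 (permutation p = 1e-05, the smallest that 100000 resamples can give, and adjusted p = 5e-05). On the burst array AAH1 rose by 4.37 ± 0.37 log2 (SD, n = 3 cycles) more than ADO1. The phosphoribosyltransferase genes HPT1 and APT1 differed by a swing of 0.38, which did not pass (p = 0.0743 in the permutation test). On the burst array HPT1 rose less than APT1 in all 3 cycles, by 0.32, 0.17 and 0.24 log2.

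The 3 cycles were compared in level and in swing. For level, limma called 0 of the 9 genes and 0.053% of all genes, and 0 of the 9 had an unadjusted p under 0.05. The largest difference in level between cycles was 0.27 log2, for IMD2. For swing or timing, limma called 0 of the 9 and 0.0354% of all genes, and again 0 had an unadjusted p under 0.05. The cosine has a period of the whole cycle, so a move of the burst between neighbouring positions changes it little. Fitted within each cycle, the peak of GUA1 lay at position 9.10 ± 0.07 (SD, n = 3) and that of AAH1 at position 8.77 ± 0.26.

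Neighbouring steps of purine metabolism were read from lists of other genes, each to be set against the 30.0% of all genes that were higher at positions 8 and 9 and the 32.1% that were lower. Of the genes of purine synthesis from small precursors, 8 of 9 measured were higher at positions 8 and 9 in limma, 0 were lower, and the median difference was 1.22 log2. ADE17, which makes IMP from the last intermediates, swung by 3.16 ± 0.24 log2 (SE) with its peak at position 9.72, and ADE4, the step that commits to the pathway, by 2.41 ± 0.26. ADE16, the isoenzyme of ADE17, had a difference of -0.01 log2 at positions 8 and 9 (adjusted p = 0.952 in limma) and a swing of 0.70 with its peak at position 5.34. ADE57 of this list was not analysed here.

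Genes that supply phosphoribosyl pyrophosphate and folate-bound carbon were higher at positions 8 and 9 in 12 of 13, with a median of 1.11 log2. SHM2, the cytosolic serine hydroxymethyltransferase, swung by 2.92 ± 0.23 log2 and MIS1, of mitochondrial folate metabolism, by 2.09 ± 0.32. SHM1, the mitochondrial form, had a difference of 0.15 (adjusted p = 0.144 in limma) and a swing of 0.22 ± 0.11.

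Purine conversion and breakdown had no common direction. Of 13 genes measured, 7 were higher at positions 8 and 9 and 5 were lower in limma, with a median difference of 0.42 log2. ADK2, the mitochondrial adenylate kinase, fell by 1.19 ± 0.19 log2 (adjusted p = 2.97e-06 in limma), with 0.717, 0.208 and 0.187 at position 8 against 2.15, 2.26 and 2.15 at position 10. SAH1, adenosylhomocysteine hydrolase, swung by 1.91 ± 0.18 with its peak at position 11.4. AMD1, the AMP deaminase that returns AMP to IMP, had the smallest swing of the list, 0.55 ± 0.18, and was higher at positions 8 and 9 by 0.69 ± 0.16 log2. IMD1 of this list was not analysed here.

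Of 8 genes of base and nucleoside transport and use, 7 were higher at positions 8 and 9 and 0 were lower, with a median of 0.74 log2. FUR4, the uracil permease, swung by 3.01 ± 0.32 log2 and URH1, a nucleoside hydrolase, by 1.90 ± 0.18. FUN26, a nucleoside transporter, was higher at positions 8 and 9 by 0.62 log2, with a swing of 0.34 ± 0.16 that was not called as cycling. Of 4 genes that use GTP to make riboflavin or folate, or follow such a step, 2 were higher and 0 lower. FOL1 swung by 0.92 ± 0.26 log2 and RIB1 by 0.77 ± 0.15, while FOL2, GTP cyclohydrolase, had a swing of 0.12 ± 0.13 that was not called. Of 5 regulators, 2 were higher at positions 8 and 9 and 2 were lower. BAS1 and PHO2, the activators of the purine synthesis genes, lay among the dimmest 25% of genes and moved apart. BAS1 was higher by 1.15 ± 0.24 log2 and PHO2 lower, with a difference of -0.92 ± 0.16. SEN1, a helicase of the complex that ends the upstream IMD2 transcripts, had a difference of 0.42 ± 0.12 log2. NRD1 of the same complex had -0.51 ± 0.17 over both positions (adjusted p = 0.0105 in limma), but the positions differed. It stood at 2.00, 0.718 and 0.728 at position 8 of the 3 cycles and at 3.77, 7.84 and 3.51 at position 9. Relative to its mean over all arrays, these are -1.50 log2 at position 8 and 0.65 at position 9. NAB3 of that complex had -0.22 ± 0.14 and was not called. The ribosome assembly genes were all higher, 25 of 25, with a median of 1.85 log2. Among the 20 of them above the dimmest 25% of genes, NSR1 and DBP3 swung most, by 3.62 ± 0.46 and 3.25 ± 0.37, and UTP7 least, by 1.57 ± 0.28.

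**Figure D5:**
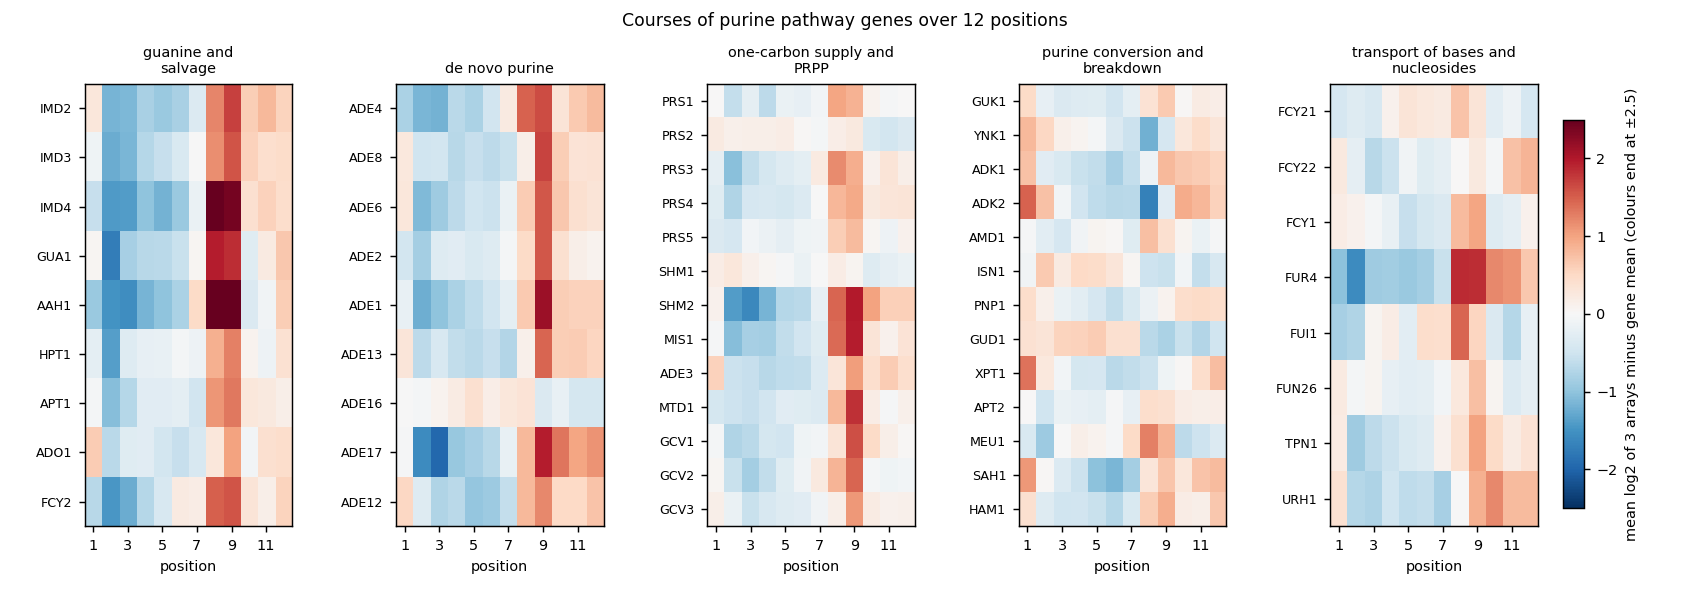
Mean log2 value of 3 arrays at each position minus the gene's mean over 36 arrays, as colour, for the 9 genes and 4 lists of purine pathway genes; rows are genes and columns positions. The 9 genes and most synthesis genes are red at positions 8 and 9 or at 9, whereas ADK2 and YNK1 are blue at position 8 and GUD1 at both positions.

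The 9 genes resembled each other to different degrees. Pearson correlations of log2 values over 36 arrays ranged from 0.503, between ADO1 and FCY2, to 0.946, between IMD4 and AAH1, with a median of 0.862 over the 36 pairs. The arrays are successive samples that share the burst, so these values are a description. Among 4233 other genes above the dimmest 25%, AAH1 was most like DBP2, an RNA helicase that is also on the ribosome assembly list (0.975), MAE1, the malic enzyme (0.959), and RRB1, a ribosome assembly factor (0.944). GUA1 was most like NOP13, a nucleolar protein (0.964), RPA190, the largest subunit of RNA polymerase I (0.960), and RET1 of RNA polymerase III (0.956). RPA190 was also among the 3 genes most like HPT1 (0.922) and APT1 (0.919), beside LHP1 (0.931) and SXM1 (0.911) for HPT1 and GIM5 (0.939) and RPO26 (0.917) for APT1.

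IMD4 was most like WRS1, the tryptophanyl-tRNA synthetase (0.958), PRS4 of phosphoribosyl pyrophosphate synthesis (0.954) and NOP13 (0.948). IMD3 was most like SHM2 (0.966), the citrate carrier CTP1 (0.963) and the ribosomal protein gene RPS26B (0.953). IMD2 was most like SAM1, an S-adenosylmethionine synthetase (0.964), SPE2 of polyamine synthesis (0.957) and the phosphatase PHO3 (0.953). FCY2 was most like SXM1 (0.936), HIS1 (0.930) and NOP13 (0.917). ADO1 had the weakest matches, WWM1 (0.882), GUK1, the guanylate kinase (0.881), and ALA1, the alanyl-tRNA synthetase (0.874).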

How the data were processed

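The intensities were deposited by the authors as 1 table of 9335 probe sets by 36 arrays. Probe summary, software and genome build: not given in the sources used here. Every array of the deposited table has a median of 1, and 381 of its values equal 0. Each of the 6504 probe sets with 1 gene symbol was named through the platform annotation and the R64 gene table, which matched all 6504 by gene identifier. A further 328 had several symbols, 2443 were unlisted and 60 were controls. The probe set of highest mean stood for each of the 5656 genes. Groups were the 12 positions, read with the cycle from each array's description.

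From there, log2(intensity + 0.0516) was computed, the pseudocount being the 10th percentile of positive values. Tests used limma 3.58.1 in R 4.3.3 with a trend on mean level and p-values adjusted over all genes by Benjamini-Hochberg at 0.05. Python 3.11.15 was used with pandas 2.3.3, numpy 2.4.6 and matplotlib 3.10.9. The limma tests were tried on simulated data with independent noise around a flat mean for each gene. The simulation held no serial dependence and no cycling in the unchanged genes, so it does not cover these features of the arrays. The cosine test, the contrast of positions 8 and 9, the burst contrast and the pair test used all 36 arrays without a cycle block. The tests between cycles also used all 36 arrays. They held cycle as the tested factor for level, and as a covariate for swing. The burst contrast leaves the rest of the cycle in its residual, which widens its errors. The number of arrays limits the precision. Named genes were the 9 members, in each list the 2 with the widest and the 1 with the narrowest swing above the dimmest 25%, the 3 genes most like each member, and NSR1. FCY22, YNK1, GUD1, BAS1 and PHO2 were named after their values were seen. The members, lists and tests were chosen with earlier results of these data known. Alternatives covered pseudocount, scaling, probe choice, dim genes, error model, cycles left out and the cycle as a block. Motifs and protein identity, planned for promoters and proteins, were not run, since no sequences were used here.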

Additional observations from a re-analysis of the deposited data

Results flagged for a closer look

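The difference of position 9 minus position 8 had opposite signs in cycle 1 and in cycles 2 and 3 for 3 genes. For AAH1 it was 2.45 log2 in cycle 1, -2.35 in cycle 2 and -3.97 in cycle 3. For IMD4 it was 2.51, -0.99 and -2.88, and for FCY2 1.64, -0.024 and -1.41. FCY2 was thus near level in cycle 2, and the probe set annotated to both FCY2 and FCY22 was higher at position 9 there. Each value rests on 1 array per position, so the difference between cycles was not tested.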

How the results depend on the processing

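All 9 genes kept their calls of cycling and of a rise at positions 8 and 9 under the alternatives run, except ADO1 with position 8 alone, and no difference changed sign. Genes turned by 1 log2 between positions 8 and 9 numbered 174 with a pseudocount of 1, 196 without the dimmest 25% of genes and 556 at a threshold of 0.5 log2, against 296. Of the 9 genes, 2 turned with quantile normalization, equal trimmed means, the mean of probe sets or the lower threshold, AAH1 and IMD4, against 1. The swing of the IMD3 and IMD4 difference was 0.24 with a pseudocount of 1, and the cause was not tested. With each cycle left out in turn it lay between 0.97 and 1.33, and that of IMD2 and IMD3 between 0.45 and 0.76. Genes whose swing differed between cycles numbered 1 with quantile normalization, with equal trimmed means and without the dimmest 25%, and 0 to 1 with a cycle left out, against 2. Genes whose level differed numbered 0 to 7 with a cycle left out, against 3, and genes lower at position 2 numbered 447 to 879, against 915. The cycle as a replicate block changed no call of the 9 genes or 5 pairs, with 1686 genes higher at positions 8 and 9, against 1695. The arrays of a cycle are successive samples. Their deviations from the position means correlated at -0.0064, 0.014 and 0.040 in the median of cycles 1, 2 and 3. Single pairs ranged from -0.680 to 0.473. Of 66 pairs in each cycle, 24, 19 and 27 were over 0.1, against 93 of 396 pairs from different cycles. Medians near 0 therefore do not show that the arrays of a cycle are independent. No scaling moved the median of all genes by over 0.1 log2. Values near 0 and the 36 arrays limit what small differences could show.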
